A study of Homo sapiens with 8 samples.

Results

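The replication-dependent histone genes are the clustered genes that supply the bulk of H1, H2A, H2B, H3 and H4 protein. They were taken as the protein-coding rows whose GENCODE 29 symbol begins with HIST1H, HIST2H, HIST3H or HIST4H, which gave 71 of 58780 genes. Of these, 6 encode the linker histone H1, 17 H2A, 18 H2B, 15 H3 and 15 H4. They lie on chromosomes 6, 1 and 12, and 19 further rows with such a symbol but another gene type were left out. The rule used names alone and no measured value.

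The study followed the human embryonic stem cell line H1 (a cell line that shares its name with the linker histone) through directed differentiation towards the pharyngeal endoderm, the lining of the embryonic throat. RNA was sequenced at 4 stages with 2 libraries each, 8 in all: hESC, the undifferentiated cells; hDE, the definitive endoderm; hAFE, the foregut endoderm of the anterior part; and hPFE, the pharyngeal foregut endoderm. All stages come from that 1 line, no genotype or agent is given that would set them apart, and the titles mark the hESC and hDE libraries as re-analysed while the hAFE and hPFE libraries carry no such mark. Total RNA was depleted of ribosomal RNA and not selected for poly(A) tails, so histone messengers that lack a tail were kept. Nothing in the labels ties the libraries of a stage to separate cultures; the p-values below therefore rest on a spread between libraries that may be technical. Wherever hAFE or hPFE is set against hESC or hDE, stage and the origin of the libraries cannot be told apart.

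These genes are transcribed mainly in S phase, when newly copied DNA must be packaged, and most carry no introns. Their messengers normally end in a conserved stem-loop in place of a poly(A) tail; the stem-loop binding protein SLBP holds this hairpin and directs cleavage, translation and timed decay. Transcription is driven by NPAT at the histone locus body, the nuclear site where these genes gather. No library was sorted by cell cycle phase, so whether a gene follows replication was not measured here, and in bulk RNA fewer cycling cells and less RNA per cell cannot be told apart.

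Libraries held 12687161 to 17802900 counts, and mitochondrial genes took 11.4% to 19.2% of them. Markers were checked against the labels. POU5F1, a pluripotency factor, had 858 and 942 CPM (counts scaled to library size) in hESC and at most 25.8 CPM elsewhere, SOX17 had 126 and 149 CPM in hDE, and FOXA1, a foregut factor, had 78.6 and 26.7 CPM in hAFE. The summed level of 5 pharyngeal markers overlapped between hPFE and hAFE: they reached 137 and 76.0 CPM in hPFE, against 64.8 and 137 in hAFE, with 1 of 5 called higher and a median log2 fold change of -1.08. PAX9, a pharyngeal pouch gene, had 95.7 and 28.6 CPM in hPFE, against 25.4 and 21.8 in hAFE, and EYA1 had 12.2 and 26.5 CPM in hPFE, against 34.6 and 99.5 in hAFE. The libraries of these later stages also differed from each other. In hAFE the 4 foregut markers summed to 283 and 141 CPM and the neural markers to 249 and 92.8 CPM. In hPFE, 4 mesenchyme markers summed to 1340 CPM in replicate 1 and 106 in replicate 2, and to 10.2 to 21.7 CPM in the other 6 libraries. COL3A1 alone had 1232 and 29.7 CPM in hPFE, and no stage lacked any of the 4 in both libraries. Markers of neural cells summed to 71.0 to 249 CPM over the 8 libraries and those of endothelium and blood to at most 3.11 CPM. The 4 trophoblast and amnion markers summed to at most 0.797 CPM in hESC and hDE, 17.7 and 82.9 CPM in hAFE, then 11.3 and 15.7 CPM in hPFE, and 3 of 4 were called higher in hAFE than in hDE. The 71 histone genes held 0.784% and 0.750% of the counts in hESC, 0.333% and 0.464% in hDE, 0.776% and 0.682% in hAFE, and finally 0.648% and 0.391% at the hPFE stage.

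The signature of the family was sought in the GENCODE 29 transcripts as the stem-loop pattern GGCNCTTTTNAGNGCC, where N is any base, read on the transcript strand only. It was found in 31 of 71 members, which is 43.7%, and in 35 of all 19940 protein-coding genes, or 0.176%. The 31 were 7 H2A, 11 H2B, 5 H3, 8 H4 and 0 H1 genes. In 33 members the longest transcript model is the coding sequence alone and stops before the region where the hairpin would lie, and none of those models matched. The hairpin began a median of 36 bases after the stop codon, with a range of 22 to 67. Only 5 forms of the 16-base core occurred, and 17 members shared the commonest. The forms are shown for a member each, with 5 flanking bases on either side, 5′ to 3′ in hg38, the hairpin core in capitals:
HIST2H2AA3 (chr1:149842218-149842243, - strand): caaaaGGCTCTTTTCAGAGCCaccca
HIST1H2BD (chr6:26158582-26158607, + strand): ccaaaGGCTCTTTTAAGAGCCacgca
HIST1H2AG (chr6:27133510-27133535, + strand): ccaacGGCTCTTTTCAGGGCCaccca
HIST1H4J (chr6:27824454-27824479, + strand): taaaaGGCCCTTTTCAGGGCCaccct
HIST2H4A (chr1:149833027-149833052, + strand): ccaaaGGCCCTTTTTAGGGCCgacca
The core of HIST2H2AA3 was the commonest form, that of HIST1H2BD occurred in 5 members and that of HIST1H4J in 5 H4 members. The core of HIST2H4A was found in 3 H4 members and that of HIST1H2AG in 1 member.

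Levels between genes were compared as TPM, which allows for length. HIST1H4J, an H4 gene, had the highest mean level, 813 TPM over the 8 libraries and 9.30% of the members' summed TPM. The next 4 were also H4 genes: HIST1H4H at 378, HIST1H4D at 374, HIST2H4A at 347 and HIST1H4C at 333 TPM. HIST1H2BD led the H2B genes at 323 TPM, HIST1H1B the H1 genes at 303, HIST1H3E the H3 genes at 277 and HIST1H2AE the H2A genes at 242. The 10 highest members supplied 41.5% of the summed TPM. Gene models that run on past the hairpin lower a TPM: HIST2H2BE has a 2194-base model and 24.1 TPM, while HIST1H2BK has a 381-base model and 232 TPM.

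At the low end lay the genes known for expression in testis. HIST1H2AA, a testis H2A gene, had 2 and 1 counts in hESC, and its divergent partner HIST1H2BA, a testis H2B gene, had 5 and 5. Both were at 0 counts in the other 6 libraries, where a count of 0 allows up to 3. HIST3H3, a testis H3 gene, had 2 and 2 counts in hESC and 1 count in 1 hAFE library. These 3, with HIST1H4G and HIST1H4K, were the 5 members not tested, and none had more than 10 counts in all. HIST1H4K was at 0 in every library; its 312-base coding sequence is identical to that of HIST1H4J, so reads within it could have been given to HIST1H4J.

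Summed over all members, histone RNA reached 7900 and 7546 CPM in hESC, 3828 and 5428 CPM in hDE, 7044 and 6326 CPM in hAFE, then 6122 and 3641 CPM in hPFE (CPM scaled by edgeR's TMM factors). Both hDE libraries lay below both hESC libraries and both hAFE libraries, while hPFE replicate 1 lay near hAFE replicate 2 and hPFE replicate 2 lay below hDE replicate 1. Relative to hESC the mean was 0.599 in hDE, 0.866 in hAFE, then 0.632 in hPFE. The sums carry no test.

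All 5 classes had lower sums in both hDE libraries than in both hESC libraries. Against hESC, the hDE ratio ran between 0.524 for H1 and 0.650 for H4, with H2B at 0.560, H2A at 0.617 and H3 at 0.631. In hAFE the ratios to hESC were 0.802 for H1, 0.825 for H4, 0.861 for H3, 0.912 for H2A and 0.913 for H2B. On summed TPM those hAFE ratios were 1.00 to 1.18, so whether hAFE lay below hESC depended on the unit. TPM shifted the median of all genes by 0.36 on the log2 scale between hPFE and hESC and by 0.50 between hAFE and hDE. In hPFE the ratios were 0.573 for H1, 0.581 for H3, 0.601 for H4, 0.653 for H2A and 0.716 for H2B, with TPM ratios of 0.809 to 1.00. The dip in hDE was present in both units, at 0.353 to 0.419 on TPM. The median of all genes was also lower in hDE than in hESC on TPM, so the deeper dip there is partly shared with all genes.

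**Figure D1:**
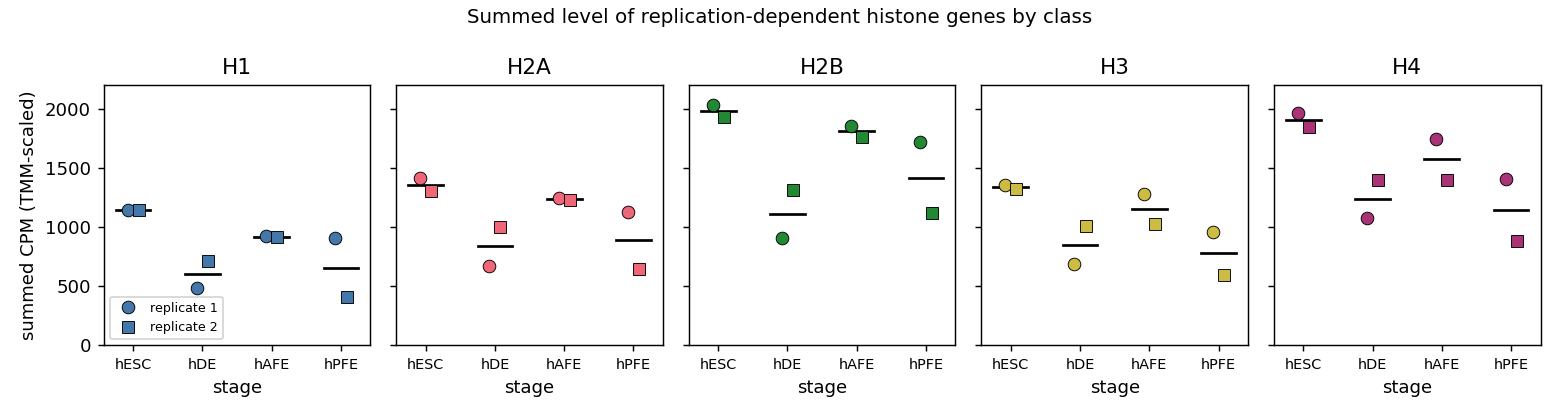
Summed CPM (TMM-scaled, from 0) of the members of each class at the 4 stages; points are the 2 libraries of a stage and the bar is their mean. In every class both hDE libraries lie below both hESC libraries, and hPFE replicate 2 lies below hPFE replicate 1.

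The libraries of a stage also differed from each other across the family. All 66 tested members were higher in hDE replicate 2 than in replicate 1, by a median of 1.46-fold, while 47.7% of all genes tested were higher in replicate 1. In hPFE, 62 of 66 were higher in replicate 1, by a median of 1.55-fold, against 49.9% of all genes. In hESC 41 of 66 and in hAFE 42 of 66 were higher in replicate 1, with median ratios of 1.04 and 1.11. The spread of single members was shared by nearly the whole family in hDE and hPFE, and members are not independent of each other.

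Other measures moved with these replicate differences in part. Of 14 mitosis genes, such as TOP2A, 14 were higher in hPFE replicate 1, as the histone genes were, but 13 were also higher in hDE replicate 1, where the histone genes were lower. Of 27 DNA replication genes, 16 were higher in hPFE replicate 1 and 8 in hDE replicate 1. hPFE replicate 1 also held the mesenchyme markers, and its mitochondrial share was 14.9%, against 19.2% in hPFE replicate 2; in hDE the shares were 11.4% in replicate 1 and 14.9% in replicate 2. The part of any of these in the histone levels was not tested.

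In definitive endoderm about as many members fell as did not pass the test. Of 66 members tested, 34 were lower in hDE than in hESC and 0 were higher by edgeR's quasi-likelihood test (adjusted p under 0.05), or 51.5%. The background was 21.6 percent of all 17446 genes called lower and 20.3 percent called higher. At an unadjusted p under 0.05 the counts were 42 lower, beside 26.1 percent of all genes, and 1 higher, beside 24.6 percent; DESeq2 called 1 higher, HIST1H3D. The median log2 fold change was -0.83 over the members and -0.01 over all genes. In 55 members both hDE libraries lay below both hESC libraries, which held for 40.7 percent of all genes. Without hDE replicate 1 the calls dropped to 11, without hESC replicate 1 or 2 to 20 or 19. With the 4 libraries compared fitted alone there were 52, and on log2(TPM + 1) limma called 57. On log2(TPM + 1) the median of all genes was lower in hDE too. Over the alternatives other than leaving out 1 library, 5412 to 10126 of all genes were called in either direction, against 7304 in the main fit. Of the 34 calls, 11 held under every alternative tried.

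Among the linker histones, which bind the DNA entering and leaving the nucleosome, HIST1H1D stood out. It had 61.0 and 78.9 CPM in hDE, against 259 and 266 CPM in hESC. The hDE libraries lay far under the hESC libraries, a 3.75-fold lower level (log2 fold change -1.91 ± 0.31 SE, adjusted p = 0.0024), and the call held under every alternative. HIST1H1C was 2.43-fold lower (adjusted p = 0.0158), with 89.7 and 119 CPM in hDE against 257 and 249 in hESC. HIST1H1B and HIST1H1E did not pass (log2 fold changes -0.64 and -0.44, adjusted p = 0.207 and 0.353), and neither did HIST1H1A (-0.55, adjusted p = 0.190). The testis linker gene HIST1H1T fell to 1 and 6 counts in hDE, against 82 and 42 in hESC, and was called 12.9-fold lower (adjusted p = 0.0039).

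HIST1H1D also made up less of the H1 class after hESC. Its share of summed H1 TPM was 23.6% in hESC, 12.3% in hDE, 7.17% in hAFE, and 10.5% at the hPFE stage, with SDs of 0.362, 1.02, 0.547 and 0.640 percentage points (n = 2 each). The hESC libraries did not overlap those of any other stage. HIST1H1B held 30.7% in hESC, 38.1% in hDE, 41.2% in hAFE, then 34.4% in hPFE, and HIST1H1E 17.5%, 25.2%, 23.8% and 22.0% in the same order of stages. These shares depend only on the H1 genes of each library and not on library scaling, but a share moves when any other H1 gene does.

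**Figure D2:**
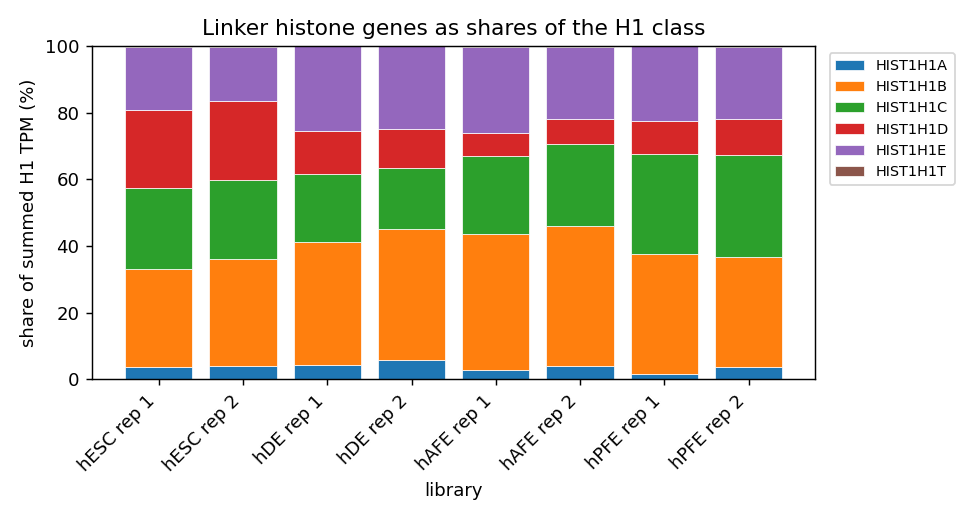
Share of summed H1 TPM (%) held by each of the 6 linker histone genes, 1 stacked bar per library in stage order. HIST1H1D holds 23.3% and 23.8% in the hESC libraries and 6.78% to 13.1% in the other 6; HIST1H1T is too small to see.

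Of 16 H2A genes 6 fell in hDE. HIST1H2AB had 8.63 and 13.4 CPM in hDE, against 34.2 and 34.1 in hESC, 3.09-fold lower (adjusted p = 0.0031). HIST1H2AD had 9.17 and 10.8 CPM in hDE, against 23.0 and 24.2 in hESC, 2.36-fold lower (adjusted p = 0.0026). The deposited posterior standard deviation of HIST1H2AD was 0.0855 of its count. HIST2H2AC did not pass: its level was 41.0 and 58.2 CPM in hDE and 43.9 and 37.5 in hESC, and the stages overlapped (log2 fold change 0.29 ± 0.23, adjusted p = 0.347).

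Of 17 H2B genes 10 fell, among them the most abundant, HIST1H2BD. It had 82.3 and 114 CPM in hDE, against 241 and 228 in hESC, 2.39-fold lower (adjusted p = 0.0075). HIST1H2BE was 2.97-fold lower, HIST1H2BF 2.61-fold and HIST1H2BH 2.60-fold (adjusted p = 0.0042, 0.0046 and 0.0030). HIST2H2BE did not pass, with 78.0 and 113 CPM in hDE and 101 and 99.5 in hESC (log2 fold change -0.07 ± 0.23, adjusted p = 0.819).

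The H2A and H2B genes lie partly in head-to-head pairs that share the stretch between their starts. GENCODE held 11 such pairs, with 219 to 331 bases between the starts, and both genes were tested in 10. In 2 pairs both genes were called lower in hDE, in 5 pairs 1 gene was and in 3 pairs neither. The log2 fold changes of partners differed by a median of 0.31 and by at most 0.50. The SD of single genes was 0.50 over all 16 H2A and 0.46 over all 17 H2B genes tested. This SD is another measure than a difference between partners and covers more genes. Whether partners were more alike than other genes was not tested. HIST1H2AD and HIST1H2BF, for example, had -1.24 and -1.39, and HIST2H2AC and HIST2H2BE had 0.29 and -0.07.

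Of 14 H3 genes 7 fell. HIST1H3E, the most abundant, had 90.6 and 125 CPM in hDE, against 265 and 247 in hESC, 2.37-fold lower (adjusted p = 0.0074). HIST2H3D had 17.8 and 32.3 CPM in hDE, against 74.1 and 77.7 in hESC, 3.02-fold lower (adjusted p = 0.0112). HIST1H3D did not pass the test and was higher in hDE, at 12.6 and 20.8 CPM in hDE against 9.13 and 5.26 in hESC (log2 fold change 1.22 ± 0.47, adjusted p = 0.0690; 0.0284 with DESeq2). It was the 1 member whose hDE libraries both lay above both hESC libraries, against 39.1 percent of all genes, was chosen for mention after its values were seen, and had a deposited posterior standard deviation of 0.0933 of its count.

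Of 13 H4 genes 8 fell. HIST4H4, the gene on chromosome 12 (chr12:14767999-14771131), had 20.0 and 26.4 CPM in hDE, against 75.9 and 82.4 in hESC, 3.40-fold lower (adjusted p = 0.00072). HIST1H4L had 17.1 and 18.3 CPM in hDE, against 49.0 and 67.0 in hESC, 3.28-fold lower (adjusted p = 0.0011). The dominant HIST1H4J had 250 and 298 CPM in hDE, against 414 and 365 in hESC, and did not pass (log2 fold change -0.51 ± 0.29, adjusted p = 0.194). HIST1H4E overlapped between the stages, with 157 and 220 CPM in hDE and 212 and 183 in hESC.

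**Figure D3:**
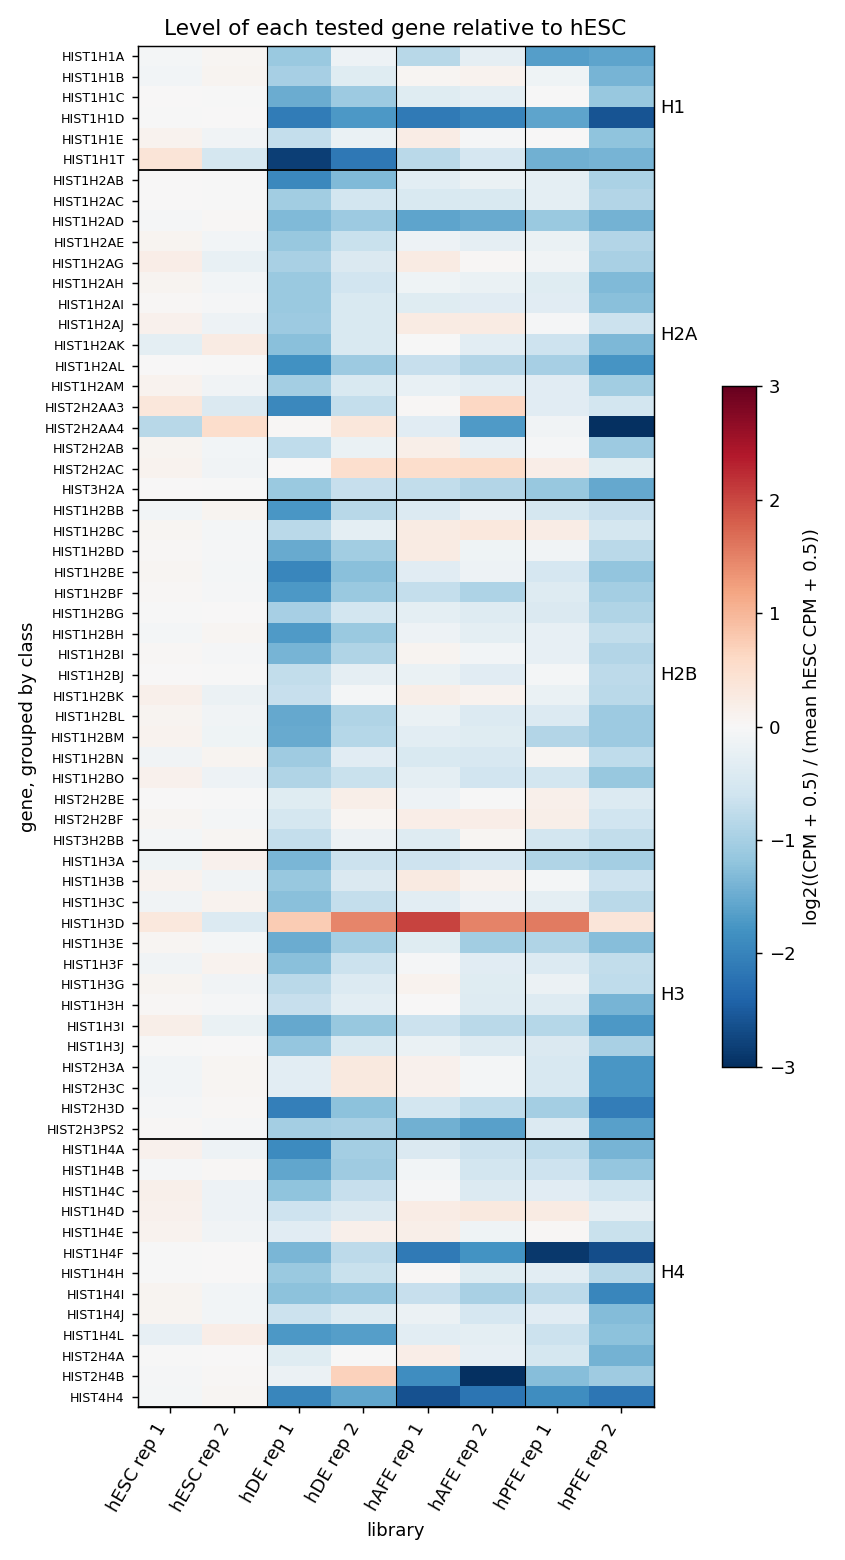
Log2 ratio of each of the 66 tested genes (rows, by class) in each library (columns, in stage order) to its mean in hESC, computed on CPM + 0.5; blue is below hESC and red above, with colours saturated at 3 and -3. Most rows are blue in hDE, nearly white in hAFE and blue again in hPFE replicate 2, while some rows, HIST1H1D, HIST1H2AD, HIST3H2A, HIST1H4F and HIST4H4 among them, stay blue at all 3 later stages.

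In anterior foregut endoderm part of the family rose again. Of 66 members 17 were higher and 2 lower in hAFE than in hDE, beside 15 percent of all genes called higher and 15.2 percent called lower. At an unadjusted p under 0.05 there were 25 higher and 3 lower, beside 21.2 percent and 20.8 percent. The median log2 fold change was 0.55 over the members and 0.01 over all genes. Both hAFE libraries lay above both hDE libraries in 45 members (35.1 percent of all genes) and below them in 6 (35.2 percent). The rises were spread over 1 H1, 3 H2A, 6 H2B, 2 H3 and 5 H4 genes, and 13 of these 17 genes were among the 34 lower in hDE than in hESC, 2 comparisons that share the hDE libraries. Without hDE replicate 1, the hDE library with less histone RNA, 1 call was left, that of HIST1H4L. Without hAFE replicate 1 there were 9 higher calls, without either hPFE library 26, and on log2(TPM + 1) limma called 59 members higher. On log2(TPM + 1) the median of all genes was higher in hAFE too. Over the alternatives other than leaving out 1 library, 4550 to 7275 of all genes were called in either direction, against 5267 in the main fit. The trophoblast and amnion markers were also higher in hAFE than in hDE, and their part in the histone levels was not tested.

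HIST1H4L had 46.7 and 47.3 CPM in hAFE, against 17.1 and 18.3 in hDE, 2.66-fold higher (adjusted p = 0.0034). HIST1H2AB had 27.2 and 29.8 CPM in hAFE, against 8.63 and 13.4 in hDE, 2.58-fold higher (adjusted p = 0.0085), and HIST1H2BD was 2.52-fold higher (adjusted p = 0.0079). In all 3 the stages did not overlap, and the hAFE values lay near those of hESC. HIST1H1T had 28 and 33 counts in hAFE, against 1 and 6 in hDE, and was called 7.57-fold higher (adjusted p = 0.0147).

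HIST1H4F and HIST2H4B were the 2 members that fell in hAFE. HIST1H4F had 15.7 and 19.9 CPM in hAFE, against 26.9 and 40.2 in hDE, 1.89-fold lower (adjusted p = 0.0177). This call was lost without hDE replicate 2, without hAFE replicate 1 and on log2(TPM + 1). HIST1H1D did not pass, at 59.7 and 66.4 CPM in hAFE against 61.0 and 78.9 in hDE (log2 fold change -0.15 ± 0.30, adjusted p = 0.736). On log2(TPM + 1), however, limma called it higher, by 0.74, beside a shift of 0.50 in the median of all genes.

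Between pharyngeal and anterior foregut endoderm no member passed the test. The counts were 0 higher and 0 lower of 66 by edgeR, beside 4.77 percent of all genes called higher and 2.71 percent called lower; at an unadjusted p under 0.05 they were 1 higher and 9 lower, beside 13.5 percent and 12.9 percent, and DESeq2 called 0 higher and 5 lower. The 5 were HIST1H1A, HIST1H4F, HIST2H4A and the copies HIST2H3A and HIST2H3C. The median log2 fold change was -0.41 over the members and -0.03 over all genes. Both hPFE libraries lay below both hAFE libraries in 34 members (26.6 percent of all genes) and above them in 3 (23.1 percent). Without hPFE replicate 1, leaving the library with less histone RNA, 13 members were called lower, and without replicate 2 there were 0.

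HIST1H1A, a linker histone, had 13.0 and 13.6 CPM in hPFE, against 23.3 and 34.7 in hAFE, with the stages apart but the test not passed (log2 fold change -1.12 ± 0.32, adjusted p = 0.0741). HIST1H4F had 8.92 and 10.7 CPM in hPFE, against 15.7 and 19.9 in hAFE (log2 fold change -0.86 ± 0.23, adjusted p = 0.0625). HIST1H1B illustrates the spread within hPFE: it had 324 and 134 CPM there, against 370 and 378 in hAFE (adjusted p = 0.277).

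Set against the starting cells, 22 of 66 members were lower in hPFE than in hESC and 0 were higher, beside 23.3 percent of all genes called lower and 21.6 percent called higher. At an unadjusted p under 0.05 the counts were 36 lower and 1 higher, beside 27.2 percent and 26.1 percent, and DESeq2 called 1 higher, HIST1H3D. The share of members called lower was 33.3%, and their median log2 fold change was -0.66, against 0.02 for all genes. In 51 members both hPFE libraries lay below both hESC libraries (38.2 percent of all genes) and in 1 above them (37 percent). By class, 3 H1, 3 H2A, 5 H2B, 4 H3 and 7 H4 genes fell. Without hPFE replicate 1 there were 48 lower calls, without replicate 2 there were 12, and without hESC replicate 1 or 2 there were 8 or 9; on log2(TPM + 1) there were 9. Calls for HIST1H1D, HIST3H2A, HIST1H2AD, HIST4H4 and HIST1H4F held under every alternative.

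Among the members called, HIST1H4F had the largest fall. It had 8.92 and 10.7 CPM in hPFE, against 69.4 and 70.5 in hESC, 7.14-fold lower (log2 fold change -2.84 ± 0.23, adjusted p = 0.00019). With hDE and hAFE between them, its CPM was lower at each later stage and no libraries of neighbouring stages overlapped, although the step between hPFE and hAFE did not pass. On TPM the hAFE and hDE libraries overlapped, at 76.2 and 90.4 TPM in hAFE and 68.3 and 104 TPM in hDE. HIST4H4 had 21.5 and 17.2 CPM in hPFE, against 75.9 and 82.4 in hESC, 4.09-fold lower (adjusted p = 0.00046). HIST1H1D had 87.4 and 43.0 CPM in hPFE, against 259 and 266 in hESC, 4.02-fold lower (adjusted p = 0.0019). HIST1H1A was 3.13-fold lower (adjusted p = 0.0053), a call lost on log2(TPM + 1).

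HIST1H4F and HIST1H4L, both H4 genes, followed different courses after hDE in CPM. HIST1H4F (chr6:26240426-26240737) fell further in hAFE, and HIST1H4L (chr6:27873199-27873510) was higher again. HIST1H4F lies in the same stretch of chromosome 6 as HIST1H1D (chr6:26234268-26234933), and HIST1H4L in the same stretch as HIST1H1B (chr6:27866849-27867529). Neighbours did not all share a course. HIST1H3F (chr6:26250195-26250605) also lies near HIST1H4F but was called higher in hAFE than in hDE. Whether position had a part in these courses was not tested.

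**Figure D4:**
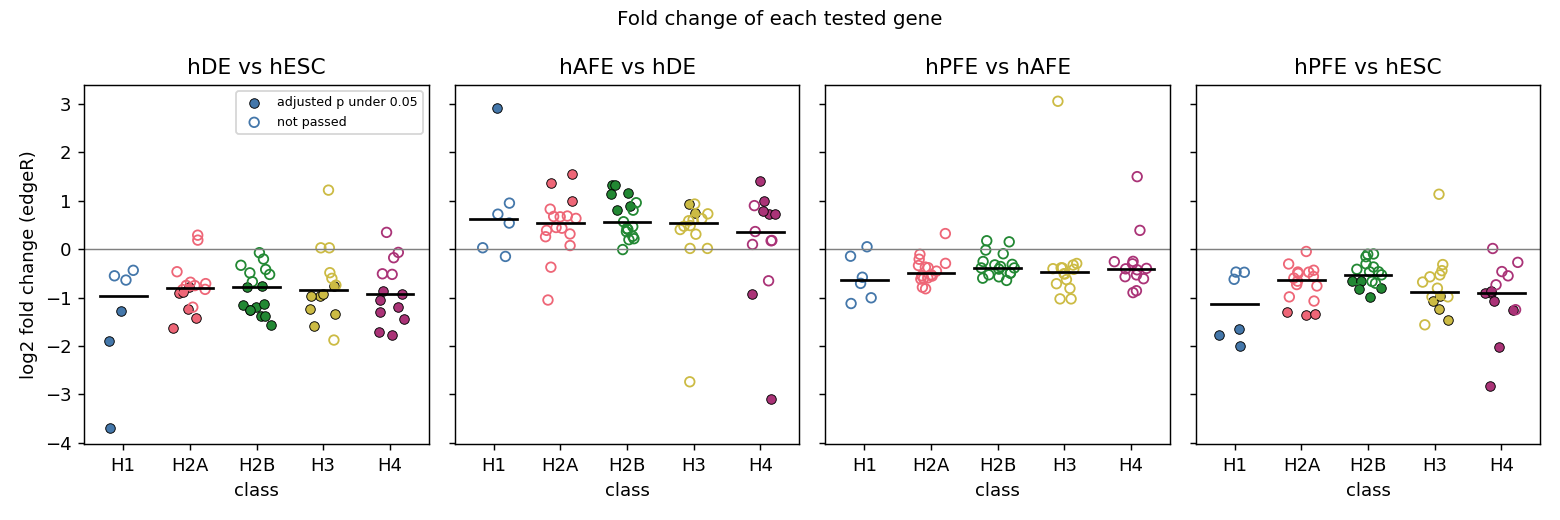
Log2 fold change (edgeR) of each of the 66 tested genes by class in the 4 comparisons, the later stage over the earlier; filled points passed an adjusted p under 0.05, open points did not, and bars are class medians. Medians lie below 0 in hDE against hESC, above 0 in hAFE against hDE and below 0 in both hPFE comparisons.

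The promoters of HIST1H1D, HIST1H1B, HIST1H4F and HIST1H4L are shown because these genes share a family but not a course. They are the 300 bases from 250 before to 50 after the start in RefSeq on GRCh38.p14, 5′ to 3′ on the gene's strand. Capitals mark matches on either strand. The motifs searched were TATAAA, which is the box bound by the general transcription machinery, and CCAAT, which is the box bound by NF-Y. For the classes they were GGTCCG, which is the core bound by the H4 gene factor HINFP, then AAACACA, which is the box found before linker histone genes and called the H1 box here, and lastly ATTTGCAT, which is the octamer bound by POU2F1:
HIST1H1D promoter (chr6:26234938-26235237, - strand): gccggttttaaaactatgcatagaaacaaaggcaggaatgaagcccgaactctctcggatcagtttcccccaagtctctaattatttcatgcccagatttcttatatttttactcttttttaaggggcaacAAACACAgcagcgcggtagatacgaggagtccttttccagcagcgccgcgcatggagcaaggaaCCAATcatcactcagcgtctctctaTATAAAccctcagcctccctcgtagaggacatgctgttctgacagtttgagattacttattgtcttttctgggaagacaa
HIST1H1B promoter (chr6:27867539-27867838, - strand): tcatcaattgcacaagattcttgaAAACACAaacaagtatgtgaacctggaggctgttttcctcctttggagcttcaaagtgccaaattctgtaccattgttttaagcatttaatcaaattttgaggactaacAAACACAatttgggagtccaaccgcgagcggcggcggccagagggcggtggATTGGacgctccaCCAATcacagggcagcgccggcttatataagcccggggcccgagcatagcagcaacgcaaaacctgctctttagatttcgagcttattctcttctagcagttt
HIST1H4F promoter (chr6:26240143-26240442, + strand): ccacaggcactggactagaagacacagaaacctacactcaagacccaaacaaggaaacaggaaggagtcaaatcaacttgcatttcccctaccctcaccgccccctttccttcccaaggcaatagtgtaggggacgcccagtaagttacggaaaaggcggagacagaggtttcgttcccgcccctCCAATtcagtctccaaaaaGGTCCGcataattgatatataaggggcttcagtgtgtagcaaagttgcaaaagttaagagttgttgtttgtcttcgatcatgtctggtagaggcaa
HIST1H4L promoter (chr6:27873485-27873784, - strand): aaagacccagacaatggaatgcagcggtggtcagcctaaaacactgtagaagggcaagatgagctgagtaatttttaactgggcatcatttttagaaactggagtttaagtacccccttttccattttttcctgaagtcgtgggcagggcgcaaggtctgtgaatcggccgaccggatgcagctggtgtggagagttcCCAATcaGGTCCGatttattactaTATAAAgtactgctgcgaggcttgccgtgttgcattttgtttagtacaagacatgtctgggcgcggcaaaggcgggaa
Both H1 promoters held the H1 box and CCAAT, and HIST1H1B held no TATAAA. Both H4 promoters held CCAAT and GGTCCG, and TATAAA was in that of HIST1H4L and not in that of HIST1H4F.

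RefSeq promoters were found for 66 of the 71 members. The H1 box was in all 6 H1 promoters, or 100%, and in 5.64% of 35116 RefSeq promoters. The octamer was in 68.8% of H2A and 77.8% of H2B promoters, against 1.77% of all. The HINFP core was in 92.3% of 13 H4 promoters, against 11.3% of all, and CCAAT was in 100% of H1, H2A, H2B and H3 promoters but 23.1% of H4 promoters, against 34.6% of all. Any TATAAA was in 50% to 84.6% by class, against 11.5% of all. Class shares count a gene if any promoter matched to its symbol held the motif, while shares of all are per promoter. Some H2B symbols were also matched to the promoter of HIST1H2BD. HIST1H2BF and HIST1H2BI counted for TATAAA through that promoter only and not through their own. A CCAAT match on one strand can share its end bases with a GGTCCG match on the other, as in HIST2H2AC, HIST2H2BE and HIST1H3F; a match is a description of these letters only.

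Some members are near-identical copies whose reads cannot be divided well. The coding sequences of HIST2H2AA3 and HIST2H2AA4, of HIST2H3A and HIST2H3C, of HIST2H4A and HIST2H4B, and of HIST1H4J and HIST1H4K are identical. HIST2H2AA3 had 234 and 137 CPM in hESC, 48.1 and 113 in hDE, 189 and 284 in hAFE, then 147 and 127 in hPFE. HIST2H2AA4 had 68.5 and 178 CPM in hESC, 125 and 155 in hDE, 97.7 and 37.3 in hAFE, then 114 and 2.60 in hPFE. Between the libraries of a stage the copies moved in opposite directions in hESC and hAFE and in the same direction in hDE and hPFE. Their sum was 302 and 314 CPM in hESC, 173 and 268 in hDE, 287 and 321 in hAFE, then 261 and 129 in hPFE. The coefficient of variation of the sum was 2.67% in hESC, 30.4% in hDE, 7.96% in hAFE, then 47.9% in hPFE. For HIST2H2AA3 it was 37.1%, 57.0%, 28.3% and 10.7% in the same order, and for HIST2H2AA4 62.6%, 15.0%, 63.3% and 135%. The sum varied less than both copies in hESC and hAFE, but more than HIST2H2AA4 in hDE and more than HIST2H2AA3 in hPFE. HIST2H2AA3 alone was called higher in hAFE than in hDE (log2 fold change 1.55, adjusted p = 0.0274), and the sum was not (0.46 ± 0.32, adjusted p = 0.319).

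**Figure D5:**
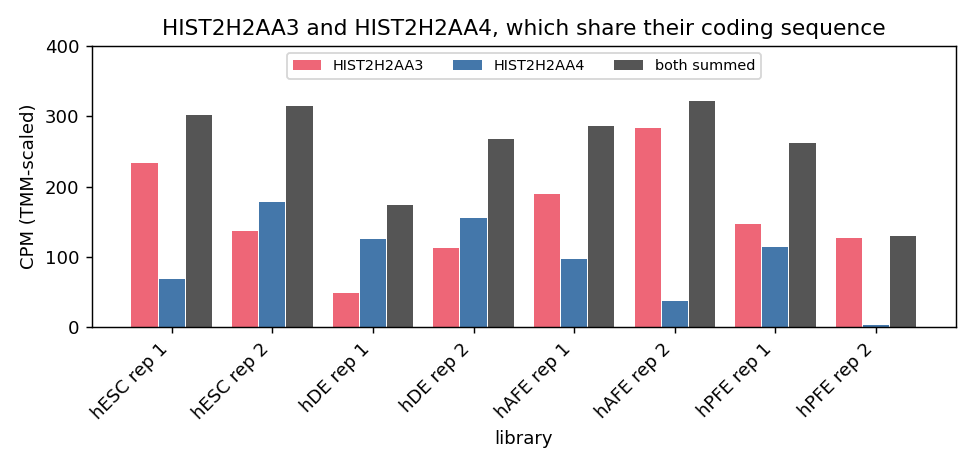
CPM (TMM-scaled, from 0) of HIST2H2AA3, of HIST2H2AA4 and of both summed in each of the 8 libraries in stage order. The share between the copies changes from library to library, with HIST2H2AA4 at 2.60 CPM in hPFE replicate 2, while the hESC sums are 302 and 314 CPM.

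HIST2H3A and HIST2H3C were given equal counts in every library, with a posterior standard deviation of 0.430 of the count. Their summed level was 167 and 68.4 CPM in hPFE, against 222 and 245 in hESC, and each single copy did not pass (adjusted p = 0.0668). The sum of these copies alone was not tested. Summed together with HIST2H3D, which was itself called lower, they fell (log2 fold change -1.09 ± 0.38, adjusted p = 0.0462). HIST2H4A with HIST2H4B had 233 and 129 CPM in hPFE, against 339 and 343 in hESC, and also fell as a sum (log2 fold change -0.91 ± 0.29, adjusted p = 0.0351). HIST2H4B alone was called lower in hAFE than in hDE on 2.91 and 0.58 CPM in hAFE against 10.6 and 19.7 in hDE, but its sum with HIST2H4A did not pass there (log2 fold change 0.11, adjusted p = 0.808). Of 70 members with a count, 60 had a posterior standard deviation under 1% of it. HIST2H3PS2, at 0.224 of its count, was at most 1.08 CPM in every library. The spans of 9 members overlap another member in 5 pairs, 3 of them on opposite strands; the libraries keep strand, but the sources used here do not give the strand setting of the counting, so these counts are uncertain.

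The lists of companion genes are read beside the shares of all genes called higher and called lower, which were 20.3 percent and 21.6 percent in hDE against hESC, 15 percent and 15.2 percent in hAFE against hDE, 4.77 percent and 2.71 percent in hPFE against hAFE, and 21.6 percent and 23.3 percent in hPFE against hESC. Of 17 genes for histone transcription and 3′ end processing, 16 were tested; 0 rose and 3 fell in hDE against hESC, 2 rose and 0 fell in hAFE against hDE, 0 rose and 1 fell in hPFE against hAFE, and 1 rose and 4 fell in hPFE against hESC. The falls in hDE and in hPFE against hESC were thus near the background. SLBP had 42.8 and 45.05 CPM in hDE, against 32.4 and 37.4 in hESC (log2 fold change 0.33 ± 0.15, adjusted p = 0.104). It rose in hAFE, to 75.1 and 75.4 CPM (0.78 ± 0.15 over hDE, adjusted p = 0.0062), and was higher in hPFE than in hESC (0.89 ± 0.15, adjusted p = 0.0025). NPAT, its partner CASP8AP2 and LSM11, a subunit of the U7 particle that helps cut the 3′ end, passed in none of the 4 comparisons. CPSF2, a subunit of the cleavage complex, fell in hDE (log2 fold change -0.75, adjusted p = 0.0052).

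Genes for histone decay that passed in hDE were higher. Of 6, 3 rose and 0 fell in hDE against hESC, 0 rose and 2 fell in hAFE against hDE, none passed in hPFE against hAFE, and 3 rose and 0 fell in hPFE against hESC. TUT4, a uridylyl transferase, had 206 and 188 CPM in hDE, against 51.1 and 48.7 in hESC (log2 fold change 1.98 ± 0.12, adjusted p = 5.9e-05), and fell in hAFE, to 102 and 95.5 CPM (log2 fold change -0.999, adjusted p = 0.00099). LSM1, a subunit of the ring that binds messenger ends, was the other to fall in hAFE (-0.66, adjusted p = 0.0429), and its direction turned on log2(TPM + 1). The other rises in hDE were XRN1, an exonuclease (0.74), and UPF1, a helicase (0.54). These 2 did not pass in hAFE against hDE.

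Most of the listed genes that copy DNA or load histones were called lower in hDE. Of 27 DNA replication genes 20 fell and 2 rose in hDE against hESC, 18 rose and 0 fell in hAFE against hDE, 12 fell in hPFE against hAFE, and 2 rose and 18 fell in hPFE against hESC. MCM2, part of the replicative helicase, had 63.0 and 67.9 CPM in hDE, against 169 and 173 in hESC (log2 fold change -1.39 ± 0.13, adjusted p = 0.00024), and 229 and 210 CPM in hAFE. Of 18 histone chaperones 10 fell in hDE against hESC, 4 rose in hAFE against hDE, 2 fell in hPFE against hAFE, and 1 rose and 9 fell in hPFE against hESC. NASP, a carrier of soluble H3 and H4, had 126 and 117 CPM in hDE, against 320 and 352 in hESC (-1.47 ± 0.17, adjusted p = 0.00067), and rose in hAFE, to 316 and 298 CPM (1.34, adjusted p = 0.0013). CHAF1A, a subunit of the assembly factor at the replication fork, fell in hDE and rose in hAFE (log2 fold changes -1.32 and 0.91). Of 14 mitosis genes 7 fell in hDE against hESC, 2 rose in hAFE against hDE and 7 fell in hPFE against hESC.

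Replicate sums of the replication genes are set beside those of the histone genes; the difference in spread was not tested. The 27 replication genes summed to 1501 and 1557 CPM in hDE and 1750 and 1692 in hPFE, where the histone genes summed to 3828 and 5428 in hDE and 6122 and 3641 in hPFE.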

How the data were processed

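Values were the deposited gene tables of 8 libraries. The authors quantified with RSEM, and DESeq2 and hg38 are listed without versions, per the submitters' processing notes; the sources used here name no aligner. Expected counts, as deposited, are estimated and divide reads matching several genes between those genes. TPM, as deposited, adjusts each gene for effective length and scales every library to 1 fixed sum, per the file headers. Effective lengths and posterior standard deviations, also deposited by the authors, were used as other columns. Per the labels' protocols, libraries were rRNA-depleted, strand-specific and paired-end.

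Each table had 59526 rows; 746 without a GENCODE identifier held 0 counts. Expected counts were rounded and filtered with filterByExpr, leaving 17446 genes and 66 of 71 members. edgeR 4.0.16 (R 4.3.3) fitted a quasi-likelihood model with TMM scaling and 4 stage terms over all 8 libraries (4 residual degrees of freedom), with Benjamini-Hochberg adjustment over all genes and a threshold of 0.05. Standard errors of log2 fold changes are the log2 fold change over the square root of F; other errors are SDs. Replicate ratios used CPM + 0.5. Alternatives were DESeq2 1.42.0, limma 3.58.1 on log2(TPM + 1), other scalings, filters and offsets, a replicate block, summed copies, and each library left out. The code was tested on simulated data, where it recovered 20% of 2-fold and 70% of 4-fold changes set in hDE against hESC. Of 100 calls there, 10 were false, and hPFE against hAFE, with no change set, gave 0 calls. A gene that did not pass may therefore still differ.

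Named members were the 3 of highest TPM in each class, up to 4 called members of largest change per comparison and direction whose libraries did not overlap, the testis genes, the near-identical copies and the members of most uncertain counts; others are given as examples within their class or pair. Members and lists were chosen with earlier results of these data known. Reads carry no molecular identifiers, so floors cover counting error only. Promoters came from RefSeq on GRCh38.p14, and hairpins and head-to-head pairs from GENCODE 29.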

Additional observations from a re-analysis of the deposited data

How the results depend on the processing

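With 2 libraries a stage, single libraries decide many calls. Leaving out 1 library gave 3879 to 8328 genes called in hDE against hESC, 2512 to 6354 in hAFE against hDE, 496 to 1586 in hPFE against hAFE and 4043 to 8309 in hPFE against hESC; a stage left with 1 library was assumed to vary like the others. Members called lower then ran between 11 and 47, 0 and 3, 0 and 13, and 8 and 48, and members called higher between 0 and 1, 1 and 26, 0 and 1, and 0 and 1, in the same order. The H2A ratio of hAFE to hESC ran between 0.876 and 0.950.

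The numbers of replicates did not pair the samples: deviations of same-numbered libraries correlated at -0.04 to 0.06. With the replicate block, 33 members were lower and 1 higher in hDE against hESC, 14 higher in hAFE against hDE, 1 lower in hPFE against hAFE and 20 lower in hPFE against hESC.

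Without a count filter, 1 member was higher in hDE against hESC, 33 were higher and 4 lower in hAFE against hDE, 1 was higher and 19 lower in hPFE against hAFE (3234 genes in all), and 1 was higher and 47 lower in hPFE against hESC. With only the 4 libraries compared, 52 members were lower and 1 higher in hDE against hESC, and 52 genes were called in hPFE against hAFE. DESeq2 called 1 member higher in hDE against hESC, 5 lower in hPFE against hAFE and 1 higher in hPFE against hESC. With copies summed, 1 member was lower in hAFE against hDE. The cause of these changes was not tested, apart from the fewer libraries or genes that a setting itself implies.

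On log2(TPM + 1), limma called 57 members lower in hDE against hESC, 59 higher and 1 lower in hAFE against hDE, and 9 lower and 1 higher in hPFE against hESC, with 812 genes in hPFE against hAFE. The median of all genes moved there by -0.27, 0.50, 0.14 and 0.36 in hDE against hESC, hAFE against hDE, hPFE against hAFE and hPFE against hESC; relative to it the members' medians were -1.07, 0.93, -0.37 and -0.50. Directions turned for HIST1H1D (0.74), UPF1 (0.70), LSM1 (0.27) and HIRA (0.69) in hAFE against hDE, and for SRRT (0.48), CPSF3 (0.16), H3F3A (0.19), MCM2 (0.0298) and CENPF (0.55) in hPFE against hESC. Summed TPM gave class ratios to hESC, for hDE, hAFE and hPFE in turn, of 0.353, 1.00 and 0.809 for H1, 0.419, 1.14 and 0.928 for H2A, 0.369, 1.18 and 1.00 for H2B, 0.362, 1.03 and 0.837 for H3, and 0.415, 1.03 and 0.865 for H4.

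Of calls in the report, 11 of 34 in hDE against hESC, 1 of 17 rises and 0 of 2 falls in hAFE against hDE, and 5 of 22 in hPFE against hESC held in every alternative.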

Other observations

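Outside the clusters, H2AFX was among the protein-coding genes that carried the hairpin pattern. H2AFX, the H2A gene whose protein is phosphorylated at DNA breaks, had 26.1 and 35.4 CPM in hDE, against 26.2 and 28.2 in hESC, and did not pass (log2 fold change 0.18 ± 0.21, adjusted p = 0.525). Its hDE replicate 2 was above replicate 1, as for all 66 tested cluster members. Of all genes tested, 47.7% were higher in hDE replicate 1, so this direction alone does not set H2AFX apart.

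Of 14 replication-independent histone genes, whose expression is not restricted to S phase, 11 were tested. Of these, 2 rose and 2 fell in hDE against hESC, and 3 rose and 0 fell in hAFE against hDE. In hPFE against hAFE 0 rose and 1 fell, and in hPFE against hESC 3 rose and 2 fell. In hDE against hESC, 20.3 percent of all genes were called higher and 21.6 percent lower, so the share of these genes was near the background. H2AFY2, which encodes a macroH2A protein, had 82.7 and 79.2 CPM in hDE, against 16.6 and 13.4 in hESC (log2 fold change 2.43 ± 0.17, adjusted p = 9.0e-05), and 138 and 116 CPM in hAFE. H3F3A, which encodes the replacement form of H3, had 181 and 179 CPM in hDE, against 356 and 330 in hESC, and fell (-0.93 ± 0.13, adjusted p = 0.0014). Its partner gene H3F3B did not pass in any of the 4 comparisons.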
